A study of Rattus norvegicus with 12 samples.

Results

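The genes of oxidative phosphorylation were followed by RNA sequencing in the rat pubocaudalis, which belongs to the pelvic floor, after simulated birth injury (SBI). Members were chosen by gene symbol: the Nduf, Uqcr and Atp5 families, Cox4 to Cox8, Sdha to Sdhd, Cyc1, Cycs and the protein-coding Mt- genes, each with a mean of at least 1 CPM in a group. CPM are a gene's counts scaled to a common library size. Of 30206 genes in the table, 123 had such a symbol and 105 met the level, 92 of them nuclear and 13 mitochondrially encoded. All 105 passed the low-count filter and were among the 14599 genes tested.

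All animals were 3-month-old female Sprague-Dawley rats that went through pregnancy, received SBI by vaginal balloon distention late in gestation and delivered. Their pups were then removed (SBI) or left to nurse (SBI + Lac), and the muscle was taken 1 or 3 weeks after SBI, giving the groups 1wk SBI and 3wk SBI without lactation and, with it, 1wk SBI + Lac and 3wk SBI + Lac. Every group had 3 libraries, and RNA of 2 rats was combined in each, so n = 3 counts pools. The study's legend calls these pools technical replicates, so the p-values measure only the spread between pools, and no uninjured muscle was sequenced.

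Oxidative phosphorylation makes most of the ATP of a working muscle fiber. Complexes I and II pass electrons from NADH and succinate to ubiquinone, complex III passes them to cytochrome c, and complex IV hands them to oxygen. Complexes I, III and IV pump protons, and complex V, the ATP synthase, lets the protons flow back and makes ATP. Most subunits are encoded in the nucleus, while a small set of core subunits is encoded by the mitochondrial genome and transcribed inside the organelle. Oxidative fibers are rich in both sets of transcripts.

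Among the nuclear members were 37 genes of complex I, 7 complex I assembly factors (Ndufaf genes), 4 genes of complex II, 8 of complex III, cytochrome c (Cycs), 15 of complex IV and 17 of complex V. The remaining 3 nuclear rows, Atp5mpl-ps1, Ndufs5-ps2 and Ndufv3-ps1, carry pseudogene names and are left out of the nuclear medians, which therefore cover 89 genes. The mitochondrially encoded members were 7 subunits of complex I, 1 of complex III, 3 of complex IV and 2 of complex V. Just inside the threshold stood Cox4i2, Cox7a1 and Ndufs6, with a top group mean of 1.48, 1.79 and 2.08 CPM. Just outside stood Atp5mk-ps2, Uqcr11 and a second row of Atp5mc1, with 0.365, 0.189 and 0.122 CPM. Cox6b1 has 2 rows among the members, and Ndufa10 and Ndufs6 each have a close copy (Ndufa10l1 and Ndufs6l1), so reads may be split within these pairs and their single values are uncertain. Cox7a1 is uncertain as well, with 10 to 165 reads per library.

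Total counts ran from 10082734 to 75634391 per library, with the least and the greatest depth both among the 3-week libraries. The 1-week values were deposited as whole counts and 26.6% to 44% of the 3-week values carry decimals, so time and the way of counting cannot be told apart in any comparison of 3 weeks with 1 week. Nuclear members took 1.61 ± 0.151% of the counts in 1wk SBI (SD, n = 3 here and throughout), 1.58 ± 0.169% with lactation, and at 3 weeks 1.83 ± 0.114% without and 1.59 ± 0.118% with lactation. The 13 mitochondrially encoded genes took 10.4 ± 1.18%, 10.0 ± 1.42%, 12.9 ± 1.67% and 12.3 ± 1.92% in the same order. Their share was highest, at 14.8% and 14.5%, in the shallowest 3wk SBI and 3wk SBI + Lac libraries. Whether depth had a part in this was not tested.

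The members moved together from library to library within a group. In 1wk SBI, replicate 3 was the highest of the 3 libraries for 84 of the 89 nuclear genes and for all 13 mitochondrially encoded genes. In 1wk SBI + Lac, replicate 2 was highest for 84 and 13, in 3wk SBI replicate 1 for 81 and 12, and in 3wk SBI + Lac replicate 3 for 74 and 13. The median nuclear level on the log2 CPM scale, relative to the mean of all 12 libraries, was -0.33 and -0.39 in 1wk SBI replicates 1 and 2 but 0.08 in replicate 3. The median nuclear level therefore had an SD of 0.21 between libraries of a group, and the mitochondrially encoded one of 0.28. Members that stand on the same side of 0 are therefore not independent observations.

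**Figure D1:**
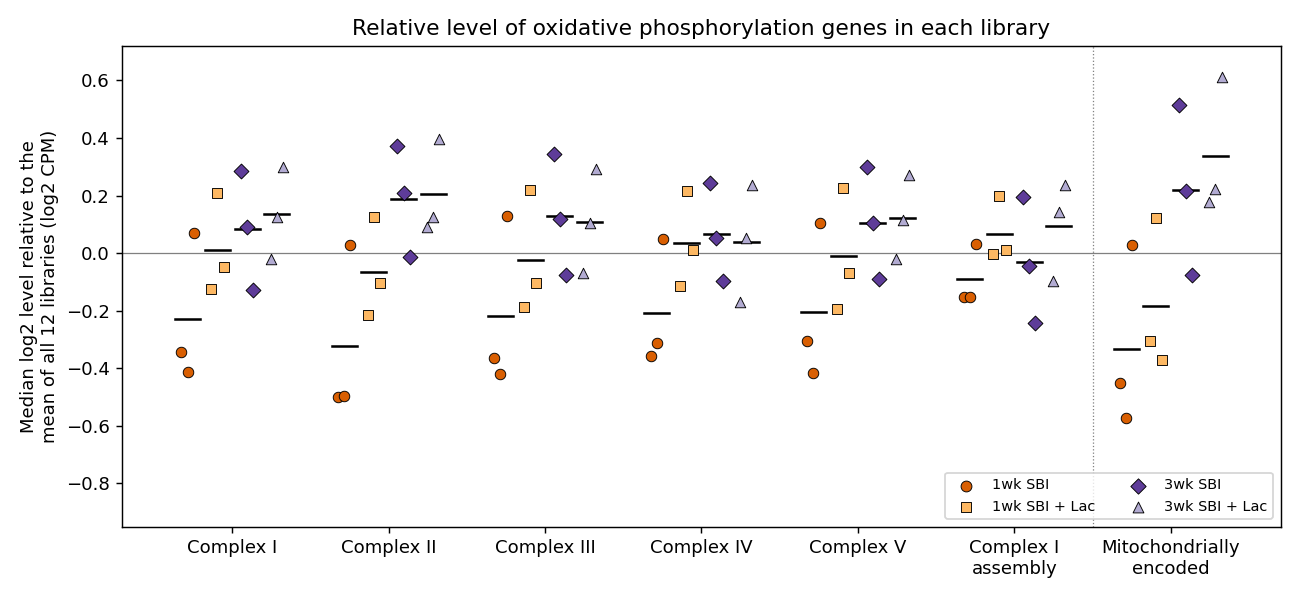
Median log2 level of each complex's nuclear genes, and of the 13 mitochondrially encoded genes, in each library relative to the mean of all 12 libraries, with points for libraries, marked by group, and bars at group means. In 1wk SBI, replicate 3 sits near 0 while the other two libraries sit between -0.30 and -0.50 for complexes I to V.

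Lactation at 1 week was compared first. The nuclear genes stood slightly higher in 1wk SBI + Lac than in 1wk SBI, with a median log2 fold change of 0.21 over 89 genes, but no member passed the test. Leaving out 1 library moved that median between 0.11 (without 1wk SBI + Lac replicate 2) and 0.38 (without 1wk SBI replicate 3), and it was 0.13 without 1wk SBI replicate 2. Of the 105 members, 101 had a log2 fold change above 0, and 0 had an adjusted p under 0.05 in edgeR's quasi-likelihood test with Benjamini-Hochberg adjustment over all genes, or in DESeq2. Without the adjustment 13 had a p under 0.05 and were higher with lactation (12.4%, against 9.76% of all genes tested), and 0 were lower (against 9.16%). Of all genes tested, 0.569% were called in either direction, and their median log2 fold change was -0.0038. The median of the members was thus about the size of the SD between libraries.

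By complex, the median log2 fold change at 1 week was 0.24 for complex I, 0.27 for complex II, 0.16 for complex III, 0.20 for complex IV and 0.16 for complex V. It was 0.12 for the complex I assembly factors and 0.16 for the mitochondrially encoded genes. Groups did not overlap, with lactation higher, for 7 members (6.67% of 105, against 14.3% of all genes tested), and with lactation lower for 0 members (against 14.1%). The member count is below the background in both directions.

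Cox6a2, the subunit VIa isoform of complex IV that striated muscle uses, was among the members whose groups did not overlap at 1 week. It stood at 334, 345 and 495 CPM in 1wk SBI and at 532, 549 and 516 CPM in 1wk SBI + Lac. Every lactating pool was above every non-lactating one, with a log2 fold change of 0.44 ± 0.17 (SE) and an edgeR adjusted p of 0.171. The ubiquitous isoform Cox6a1 went from 26.4, 19.5 and 23.8 CPM to 15.6, 21.2 and 22.8 CPM, with overlapping groups. The ratio of Cox6a2 to Cox6a1 reads was 12.7, 17.7 and 20.8 without lactation and 34.02, 25.95 and 22.6 with it, 1.62-fold higher in the mean. The groups did not overlap, and the exact two-sided permutation p was 0.1, the smallest that 3 against 3 allows.

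In complex I, the largest log2 fold change of a member with at least 10 CPM was that of Ndufs6l1, the copy of an iron-sulfur module subunit, at 0.35 ± 0.17 with overlapping groups. The lowest adjusted p of all members belonged to Ndufb10, an accessory subunit of the membrane arm, singled out here after its values were seen. It measured 72.5, 68.7 and 91.4 CPM against 89.4, 106 and 98.9 CPM, a log2 fold change of 0.34 ± 0.12 with an edgeR adjusted p of 0.135. The core subunit Ndufs1 had a log2 fold change of 0.18, with a 95% interval from -0.21 to 0.58.

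In complex II, Sdha, the flavoprotein that oxidises succinate, measured 275, 275 and 410 CPM against 364, 445 and 383 CPM, a log2 fold change of 0.31 ± 0.17. The groups overlapped only through 1wk SBI replicate 3. In complex III, Uqcr10 had the largest value, 0.30 ± 0.15, and the core protein Uqcrc1 had 0.16 ± 0.17. In complex V, Atp5f1e, the epsilon subunit of the ATP synthase, measured 15.5, 18.6 and 22.6 CPM against 25.0, 28.7 and 22.5 CPM, a log2 fold change of 0.43 ± 0.17. Atp5if1, the inhibitor that binds the ATP synthase when the proton gradient fails, had -0.11 ± 0.13. None of these passed the test, with edgeR adjusted p from 0.186 for Atp5f1e to 0.682 for Atp5if1.

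The number of edgeR calls at 1 week changed with 1wk SBI replicate 3, for the members and for all genes. Without it, edgeR called 9 members higher (8.57% of 105) and 0 lower, against 6.22% of all genes tested in that fit. They were Cox6a2, Cox7b, Ndufa8, Ndufb10, Ndufb4, Ndufb7, Ndufs7, Ndufv3 and Sdha, all nuclear. With that library kept, DESeq2 on all 12 libraries called 5.85% of genes and 0 members. The nuclear median also depended on the scaling: with library totals in place of TMM factors it was -0.02, beside a median of -0.25 over all genes tested.

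Markers of other cells and of fiber state differed between the same groups. The summed level of fast fiber markers (10 of 12 listed were tested) was 88080 to 142800 CPM in 1wk SBI and 143100 to 171800 CPM in 1wk SBI + Lac, and that of 10 slow fiber markers 7373 to 12850 and 14060 to 16910 CPM. Regenerating fiber markers, 8 of 8 tested, summed to 2410 to 5527 CPM against 1169 to 1841 CPM. Macrophage markers, 12 of 12, summed to 615 to 684 CPM against 398 to 561 CPM, and fibroblast and matrix markers, 9 of 9, to 7740 to 11220 CPM against 4579 to 8449 CPM. Of these 5 lists Cd68, a macrophage lysosomal protein, was called lower (log2 fold change -0.96, edgeR adjusted p = 0.0417) and no other gene was called. Erythroid markers, 4 of 6 tested, summed to 242 to 414 CPM against 556 to 780 CPM. T cell markers, 8 of 9 tested, summed to 13.9 to 27.1 CPM against 5.66 to 13.3 CPM, and smooth muscle markers, 5 of 5, to 3792 to 4700 CPM against 4783 to 4863 CPM. The sums of endothelial, adipocyte, Schwann cell and milk markers overlapped between the groups. Of the 5 lists given first, Mymx was at 0 in 1 library and no other gene in any. Of the 9 listed T cell markers, Cd3e, Cd3d, Cd3g, Cd8a, Cd5 and Cd2 were each at 0 in 1 to 3 of the 12 libraries. None of these T cell genes exceeded 2.07 CPM in any library. The part of these markers in the level of the members was not tested, and in bulk RNA fewer cells of a type and less RNA per cell cannot be told apart.

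At 3 weeks nuclear genes lay on both sides of 0, and a single assembly factor was called. The median log2 fold change of lactation was 0.016 for the 89 nuclear genes and 0.12 for the 13 mitochondrially encoded genes, against -0.019 over all genes tested. Leaving out 1 library moved the nuclear median between -0.09 (without 3wk SBI replicate 3) and 0.13 (without 3wk SBI replicate 1). Of the 105 members 65 were above 0 and 40 below. With library totals in place of TMM factors 16 were above 0, the nuclear median was -0.155 and that of all genes was -0.20. The nuclear share of the counts was 1.76% to 1.96% without and 1.49% to 1.72% with lactation, without overlap. In edgeR, 1 member was called, against 2.54% of all genes tested, and 3 had an unadjusted p under 0.05, 2 higher (1.90%, against 9.88% of all genes) and 1 lower (0.952%, against 11.2%). Groups did not overlap for 2 members with lactation higher, Ndufaf2 and Ndufb10 (against 11.9% of all genes), and for 1 with lactation lower, Cox7a1 (against 10.4%).

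Ndufaf2, a chaperone that holds complex I intermediates during assembly, was the gene called. It measured 4.51, 5.76 and 6.15 CPM in 3wk SBI and 7.62, 8.99 and 10.4 CPM in 3wk SBI + Lac, so every lactating pool was above every non-lactating one. Its log2 fold change was 0.68 ± 0.16, 1.60-fold, with an edgeR adjusted p of 0.0408. At 1 week it measured 6.70, 6.34 and 6.75 CPM against 7.64, 7.49 and 8.05 CPM, again without overlap, where edgeR gave 0.23 ± 0.15 on the log2 scale and an adjusted p of 0.426. The call was narrow: it was lost whenever any of the 6 libraries of 3 weeks was left out (edgeR adjusted p 0.0588 to 0.11), and in edgeR and DESeq2 fits of those 6 libraries alone. Reads for Ndufaf2 numbered from 42 to 553 per library. Without 3wk SBI replicate 1 a different assembly factor, Ndufaf6, was called.

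For the other members at 3 weeks, differences between complexes were small. The median log2 fold change was 0.05 for complex I, -0.0065 for complex II, -0.05 for complex III, 0.0014 for complex IV and 0.01 for complex V. In complex I the extremes among members with at least 10 CPM were Ndufa5 at 0.22 ± 0.15 and Ndufv1, the NADH-binding subunit, at -0.23 ± 0.16. In complex II Sdhb had 0.08 and Sdhc -0.18, in complex III Uqcr10 had 0.14 and Uqcrc1 -0.13, in complex IV Cox7c had 0.15 and Cox6a1 -0.29, and in complex V Atp5f1e had 0.23 and Atp5f1b -0.19. All of these overlapped between groups. For Cox5a, a core-binding subunit of complex IV, the log2 fold change was 0.0014 with a 95% interval from -0.35 to 0.35. With 3 pools per group, a change of either sign within that interval is therefore not excluded. Cox6a2 was at -0.0042, with an interval from -0.36 to 0.35.

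Fast fiber markers again summed higher with lactation at 3 weeks (140400 to 190900 against 205300 to 239700 CPM), with slow fiber markers at 11000 to 19680 against 16460 to 22240 CPM. Regenerating fiber markers summed to 328 to 953 against 298 to 367 CPM, macrophage markers to 462 to 1013 against 421 to 681 CPM, and fibroblast and matrix markers to 3707 to 8519 against 2220 to 3194 CPM. Among these, Cd68 was called lower with lactation (log2 fold change -1.08, edgeR adjusted p = 0.0150). T cell markers, 8 of 9 tested and several at 0 in a library as given above, summed to 10.6 to 23.3 against 2.86 to 8.25 CPM. Of them Cd28 was called lower (-1.99, edgeR adjusted p = 0.0219). The part of all these markers in the 3-week values of the members was not tested.

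**Figure D2:**
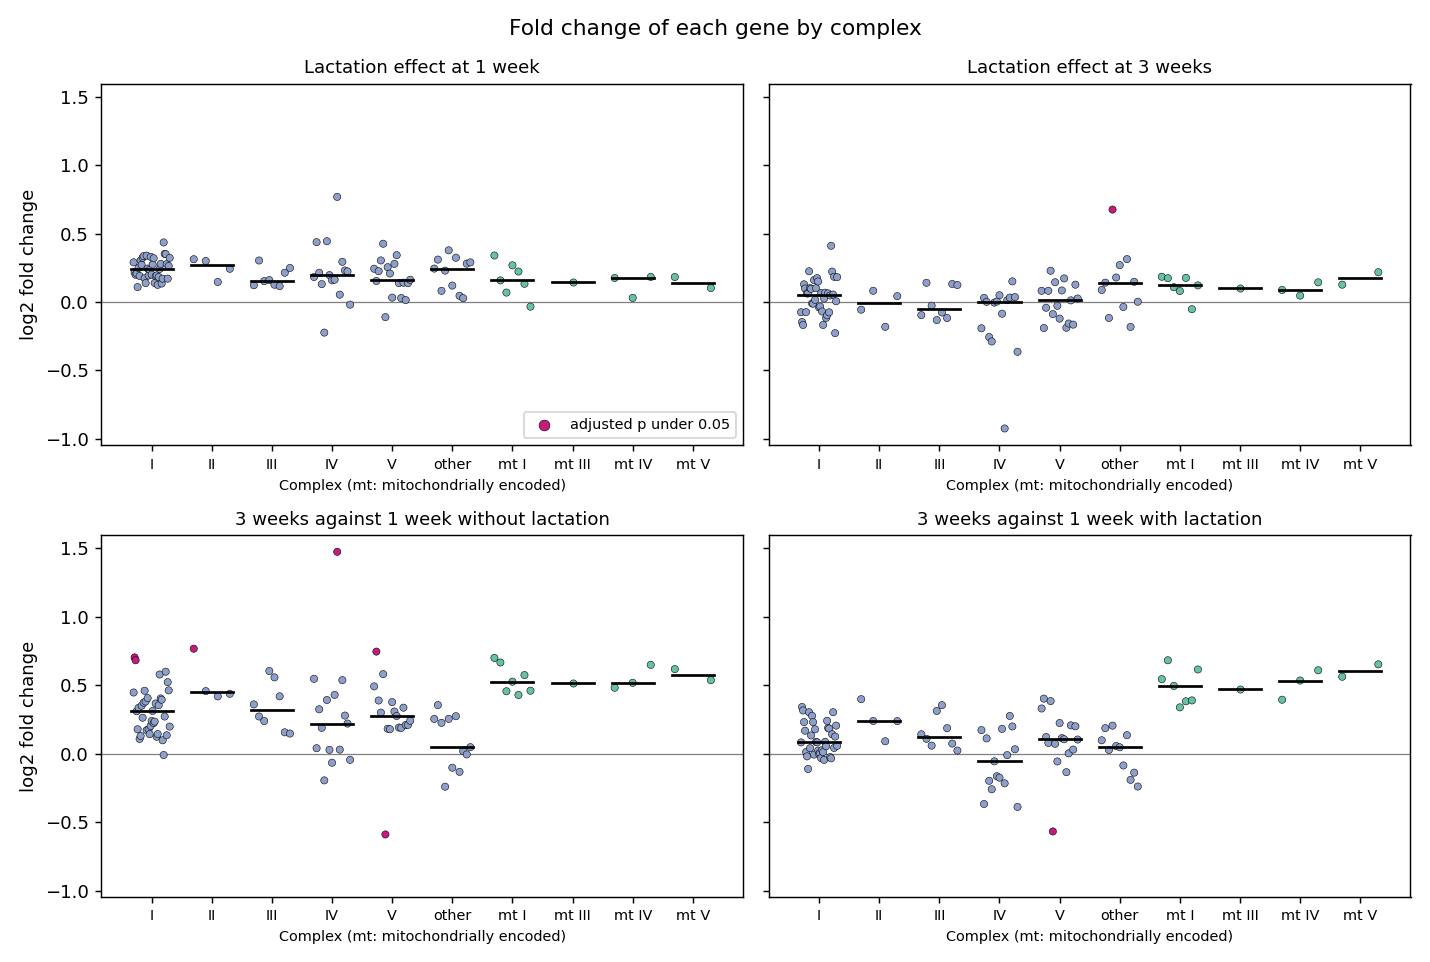
Log2 fold change of every member by complex in 4 comparisons, with nuclear genes in blue, mitochondrially encoded genes (mt) in green, genes with an adjusted p under 0.05 in magenta and bars at the medians; "other" holds the assembly factors, Cycs and the pseudogene rows. The mitochondrially encoded genes have medians of 0.53 without and 0.54 with lactation in the comparisons of 3 weeks with 1 week, while the nuclear medians are 0.27 without lactation and 0.09 with it.

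The difference between the lactation effects of the 2 time points was tested directly. Of all genes 0.00685% were called, and of the members 0, with 1 member at an unadjusted p under 0.05 in edgeR. The DESeq2 fit on all 12 libraries likewise called 0 members. The lactation effect was lower at 3 weeks than at 1 week for 96 of 105 members, with a median difference of -0.20 log2 for nuclear and -0.04 for mitochondrially encoded genes. Leaving out 1 library moved the first between -0.34 (without 1wk SBI replicate 3) and -0.09 (without 1wk SBI + Lac replicate 2), and the second between -0.25 and 0.13, below 0 in 6 of 12 fits. All 37 nuclear genes of complex I, all 4 of complex II, all 8 of complex III and all 15 of complex IV had a difference below 0. The 2 effects were measured on separate libraries, and these counts carry the shared spread of the members.

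Cox7a1, the heart and muscle isoform of complex IV subunit VIIa, was the member with the unadjusted p under 0.05. It measured 0.497, 0.725 and 0.726 CPM in 1wk SBI and 0.885, 1.36 and 1.08 CPM in 1wk SBI + Lac. At 3 weeks it measured 2.15, 1.30 and 1.98 CPM without and 0.879, 0.927 and 1.10 CPM with lactation. Lactating pools were all above the others at 1 week and all below them at 3 weeks, and the difference of the effects was -1.69 ± 0.50 log2 with an edgeR adjusted p of 0.999. These levels rest on 10 to 165 reads per library. Mean levels were 1.11 CPM in 1wk SBI + Lac and 1.81 CPM in 3wk SBI. They were 0.65 CPM in 1wk SBI and 0.968 CPM in 3wk SBI + Lac. Cox7a1 thus met the 1 CPM rule only through the groups where it stood high, so its differences are tied to its selection.

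The course from 1 to 3 weeks was examined without and with lactation. Without lactation, most nuclear genes stood higher at 3 weeks and a small group in complexes I, II, IV and V passed the test. Complex IV was represented by Cox7a1 alone, and complex I by Ndufa10 and its copy Ndufa10l1. The median log2 fold change was 0.27 for nuclear genes and 0.53 for mitochondrially encoded genes, against -0.0086 over all genes tested. In edgeR, 5 members were called higher (4.76% of 105, against 2.63% of all genes) and 1 lower (0.952%, against 2.42%). Groups did not overlap, with 3 weeks higher, for 12 members, all nuclear (11.4% of 105, against 10.2%). The share without overlap was near the background, and the share called higher rests on 5 genes, of which Ndufa10 and Ndufa10l1 may share reads. Another of the 5, Cox7a1, reached 1 CPM in 3wk SBI and not in 1wk SBI. At an unadjusted p under 0.05, 45 members were higher (42.9%, against 11.3% of all genes) and 1 was lower (0.952%, against 9.94%). Leaving out 1 library moved the nuclear median between 0.19 (without 3wk SBI replicate 1) and 0.43 (without 1wk SBI replicate 3), and the mitochondrially encoded one between 0.39 and 0.73 for the same libraries.

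Sdha had the largest log2 fold change of those called with over 10 CPM. It measured 275, 275 and 410 CPM at 1 week and 618, 557 and 459 CPM at 3 weeks, a log2 fold change of 0.77 ± 0.17 with an edgeR adjusted p of 0.0197. All 3-week pools were above all 1-week pools. The other complex II genes were at 0.46 (Sdhb), 0.42 (Sdhc) and 0.44 (Sdhd), each with an unadjusted p under 0.05 and adjusted p from 0.121 to 0.137. Complex II was the complex with the highest nuclear median, 0.45, beside 0.31 for complex I, 0.32 for complex III, 0.22 for complex IV and 0.28 for complex V. For the complex I assembly factors it was 0.02.

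Atp5f1b, the catalytic beta subunit of the ATP synthase, measured 1565, 1556 and 2289 CPM at 1 week and 3357, 3105 and 2614 CPM at 3 weeks without lactation. Its log2 fold change was 0.75 ± 0.19 with an edgeR adjusted p of 0.034, and the groups did not overlap. Ndufa10, an accessory subunit of complex I, measured 123, 117 and 168 CPM and then 249, 228 and 186 CPM, at 0.70 ± 0.15 with an adjusted p of 0.0185. Its copy Ndufa10l1 was called too, at 0.68 ± 0.15 with an adjusted p of 0.0165, and the pair may share reads. Cox7a1 was called at 1.48 ± 0.35 with an adjusted p of 0.028, on the few reads given above. Of the groups compared, only 3wk SBI reached the 1 CPM rule for it.

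Atp5if1, the inhibitor of the ATP synthase, went the other way. It measured 25.0, 28.2 and 24.3 CPM in 1wk SBI and 21.4, 15.1 and 15.8 CPM in 3wk SBI. The log2 fold change was -0.59 ± 0.13, with an edgeR adjusted p of 0.0223 and no overlap. With lactation it measured 24.8, 24.7 and 22.3 CPM at 1 week and 16.02, 17.97 and 13.9 CPM at 3 weeks, at -0.57 ± 0.13 with an adjusted p of 0.0435. It was the only member called in both states. These 2 comparisons share no library, but both come from the same fit of all 12 libraries. Both also set 3-week values with decimals against whole 1-week counts, so they are not independent of the way of counting. Atp5if1 reads per 1000 Atp5f1b reads were 15.95, 18.1 and 10.6 in 1wk SBI and 6.36, 4.87 and 6.03 in 3wk SBI, 0.393-fold in the mean. In lactating rats they were 14.1, 10.2 and 12.2 and then 6.33, 7.13 and 4.77, 0.498-fold. Neither pair of groups overlapped, and each exact two-sided permutation p was 0.1, the smallest possible. Leaving out any 1 of the 6 libraries took the call with lactation away.

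**Figure D3:**
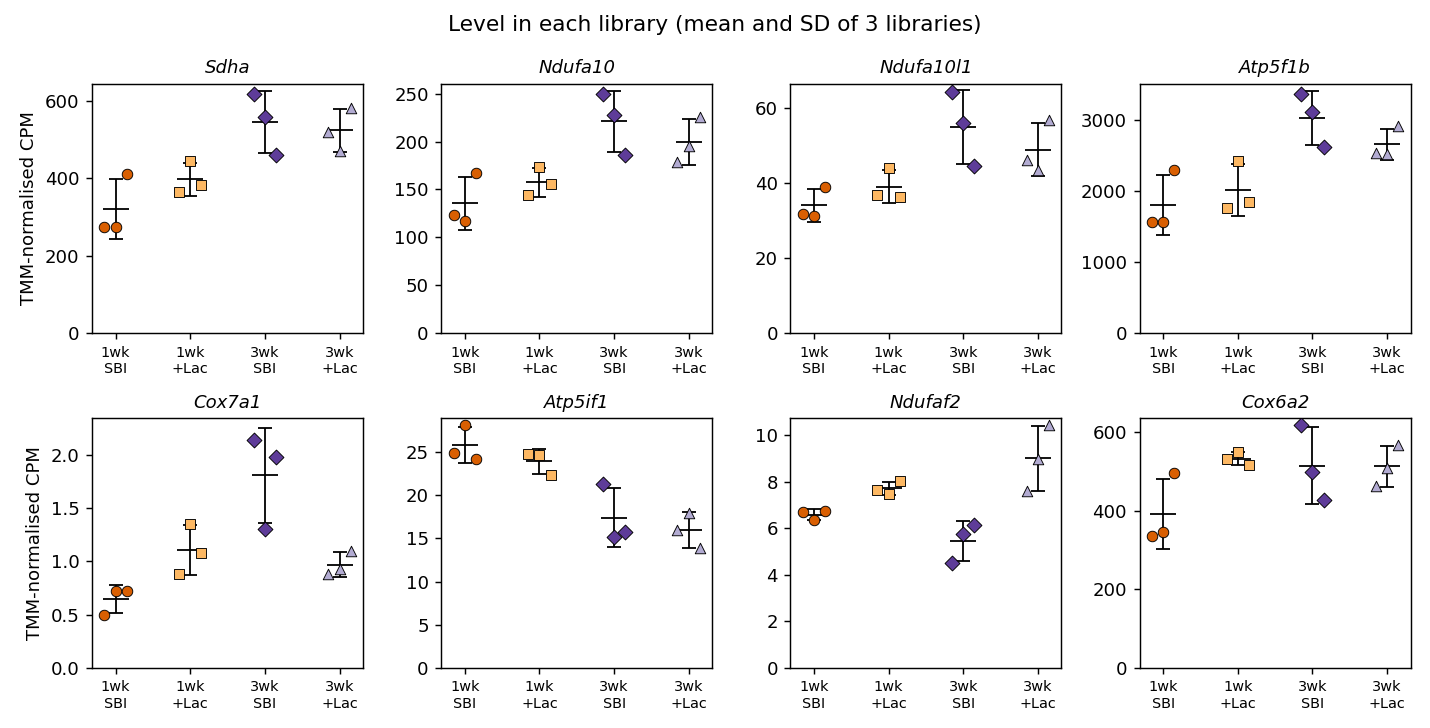
TMM-normalised CPM of the 7 members called in any comparison and of Cox6a2 in each of the 12 libraries, with the mean and SD of the 3 libraries of a group. Atp5if1 is lower at 3 weeks in both states, Ndufaf2 separates by lactation at 3 weeks, and Sdha, Ndufa10 and Atp5f1b are lowest in 1wk SBI replicates 1 and 2.

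The promoters of the nuclear genes are shown because a set of transcription factors is known to serve this family as a whole. NRF1 and the ETS factor GABP bind many promoters of respiratory chain genes, and estrogen-related receptors (ERR) act with the coactivator PGC-1alpha. In RefSeq promoter sequences of build GRCr8, which span 250 bases before to 50 bases after the start, 77 of the 89 nuclear genes had an entry. Both strands were searched, and matches of different patterns may overlap at their ends. The NRF1 pattern (GCGCA, any base, then GCGC) was in 16 of the 77 (20.8%, against 4.71% of 27457 promoters), the ETS pattern CCGGAAG in 20 (26.0%, against 9.22%) and the ERR pattern (TCAAGG, then TCA) in 2 (2.60%, against 0.412%). At least 1 of the first 2 patterns was in 35 promoters (45.5%, against 13%). A match describes letters only, not a site in use. Of the genes called above with an entry, Sdha held 3 NRF1 matches, while Atp5f1b, Ndufa10, Cox7a1, Atp5if1 and Ndufaf2 held none of the 3 patterns in this window. The following stretches of 60 bases lie before the start of Sdha (chr1:30764482-30764541, plus strand), Uqcrc1 (chr8:118468134-118468193, plus strand) and Ndufs1 (chr9:72073771-72073830, minus strand). They represent complexes II, III and I, and capitals mark 1 NRF1 match in Sdha and Uqcrc1 and 1 ETS match in Ndufs1.
Sdha: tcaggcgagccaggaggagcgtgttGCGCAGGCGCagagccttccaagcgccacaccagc
Uqcrc1: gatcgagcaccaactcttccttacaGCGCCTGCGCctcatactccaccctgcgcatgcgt
Ndufs1: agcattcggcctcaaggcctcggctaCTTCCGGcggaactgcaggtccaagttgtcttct

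In the time course without lactation, Sdha was called at 0.77, Uqcrc1 stood at 0.60 ± 0.18 with an edgeR adjusted p of 0.0596, and Ndufs1 at 0.35 ± 0.19 with 0.296. Atp5f1b and Ndufa10, with none of the patterns, had log2 fold changes of 0.75 and 0.70. No relation between matches and fold changes was tested.

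The number of calls without lactation depended on single libraries more than on any other choice. Without 1wk SBI replicate 3 edgeR called 45 members (44 higher), against 9.84% of all genes tested in that fit, and without 3wk SBI replicate 3 it called 27 (26 higher), against 14.1%. Without 1wk SBI replicate 1 or 2, or 3wk SBI replicate 2, it called 0. Without 3wk SBI replicate 1 it called 1, Atp5if1. DESeq2 on all 12 libraries called 20 members (19 higher), including Mt-atp6, Mt-co3, Mt-nd1, Mt-nd2 and Mt-nd5, whereas edgeR on the 6 libraries compared called 0. With library totals alone the nuclear median was 0.03, beside -0.26 over all genes.

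With lactation, no member was called higher at 3 weeks. The nuclear median log2 fold change was 0.09, beside -0.016 over all genes tested, and that of the mitochondrially encoded genes was 0.54. Leaving out 1 library moved the first between 0.03 (without 1wk SBI + Lac replicate 1) and 0.20 (without 1wk SBI + Lac replicate 2), and the second between 0.39 and 0.69. In edgeR, 0 members were called higher (against 0.678% of all genes) and 1, Atp5if1, lower (against 1.33%), and at an unadjusted p under 0.05 13 were higher (12.4%, against 8.36% of all genes) and 1 was lower (0.952%, against 9.78%). Whether the time course differed by lactation is the difference tested above, which called no member. Groups did not overlap, with 3 weeks higher, for 14 members (13.3% of 105, against 13.4%), 7 of them mitochondrially encoded. Sdha measured 364, 445 and 383 CPM and then 520, 471 and 581 CPM without overlap, at 0.40 ± 0.17 with an adjusted p of 0.227. Atp5f1b was at 0.40 ± 0.19 and Ndufa10 at 0.34 ± 0.15, also without overlap and not called. The complex IV median was -0.06 and the other complexes lay between 0.08 and 0.24. Fits of the 6 lactating libraries alone gave more calls, 5 in edgeR and 14 in DESeq2, of which 3 and 8 were mitochondrially encoded.

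Markers of other cells and of fiber state also differed between the time points. Of all genes tested, 2.42% were called lower and 2.63% higher at 3 weeks without lactation, and 1.33% lower with it. Regenerating fiber markers had 6 of 8 genes called lower at 3 weeks without lactation and 3 of 8 with it, and the summed ranges given above did not overlap in either state. Of the 10 slow fiber markers, Myl2 was called higher without lactation (log2 fold change 1.09, edgeR adjusted p = 0.0335), and of the fast fiber markers 0 were called. Of 9 fibroblast and matrix markers, Lum was called lower without lactation (-1.02, adjusted p = 0.0453). Of 4 erythroid markers 1 was called lower without lactation and 3 with it. The part of these markers in the time course of the members was not tested.

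All 13 mitochondrially encoded genes had a higher mean at 3 weeks than at 1 week in both states, and none passed edgeR's test. Without lactation their log2 fold changes ran from 0.43 to 0.70, 10 of 13 had an unadjusted p under 0.05, and no adjusted p was below 0.0952. With lactation they ran from 0.34 to 0.68, 8 of 13 had an unadjusted p under 0.05, and the lowest adjusted p was 0.114. The 13 are cut from long shared precursor transcripts and share the reads' depth, so they are not 13 separate observations. The 1-week and 3-week values also differ in whether they carry decimals.

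Mt-nd1, a core membrane subunit of complex I, measured 4415, 4321 and 6408 CPM in 1wk SBI and 10280, 8058 and 6264 CPM in 3wk SBI, a log2 fold change of 0.70 ± 0.23. The groups overlapped, because 3wk SBI replicate 3 was below 1wk SBI replicate 3. With lactation Mt-nd1 measured 5998, 7627 and 5541 CPM and then 8445, 8182 and 11340 CPM, without overlap, at 0.55 ± 0.23. Mt-nd2, another membrane subunit, was at 0.67 ± 0.23 without and 0.68 ± 0.23 with lactation. Mt-nd3, Mt-nd4, Mt-nd4l and Mt-nd5 were at 0.46, 0.53, 0.43 and 0.57 without lactation and at 0.50, 0.34, 0.38 and 0.39 with it.

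Mt-nd6, the only protein gene on the other strand of the mitochondrial genome, measured 39.1, 43.4 and 60.4 CPM in 1wk SBI, 40.9, 58.8 and 39.9 CPM in 1wk SBI + Lac, 71.4, 75.8 and 50.2 CPM in 3wk SBI and 50.5, 68.7 and 96.2 CPM in 3wk SBI + Lac. Its log2 fold changes with time, 0.46 ± 0.25 and 0.62 ± 0.25, lay within the range of the other 12. It was the only one of the 13 with a lactation effect below 0 at 1 week, at -0.03 ± 0.25.

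Mt-cyb, the cytochrome b of complex III, measured 7990, 7219 and 11010 CPM in 1wk SBI and 15520, 11970 and 9982 CPM in 3wk SBI, at 0.52 ± 0.23. Of the complex IV core subunits, Mt-co1 was at 0.48 ± 0.24 without and 0.39 ± 0.24 with lactation, Mt-co2 at 0.52 and 0.54, and Mt-co3 at 0.65 and 0.61. Of the proton channel subunits of complex V, Mt-atp6 was at 0.62 and 0.56 and Mt-atp8 at 0.54 and 0.65. Lactation effects on the 13 ran from -0.03 to 0.34 at 1 week and from -0.05 to 0.22 at 3 weeks, and groups overlapped for all 13 at both times.

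**Figure D4:**
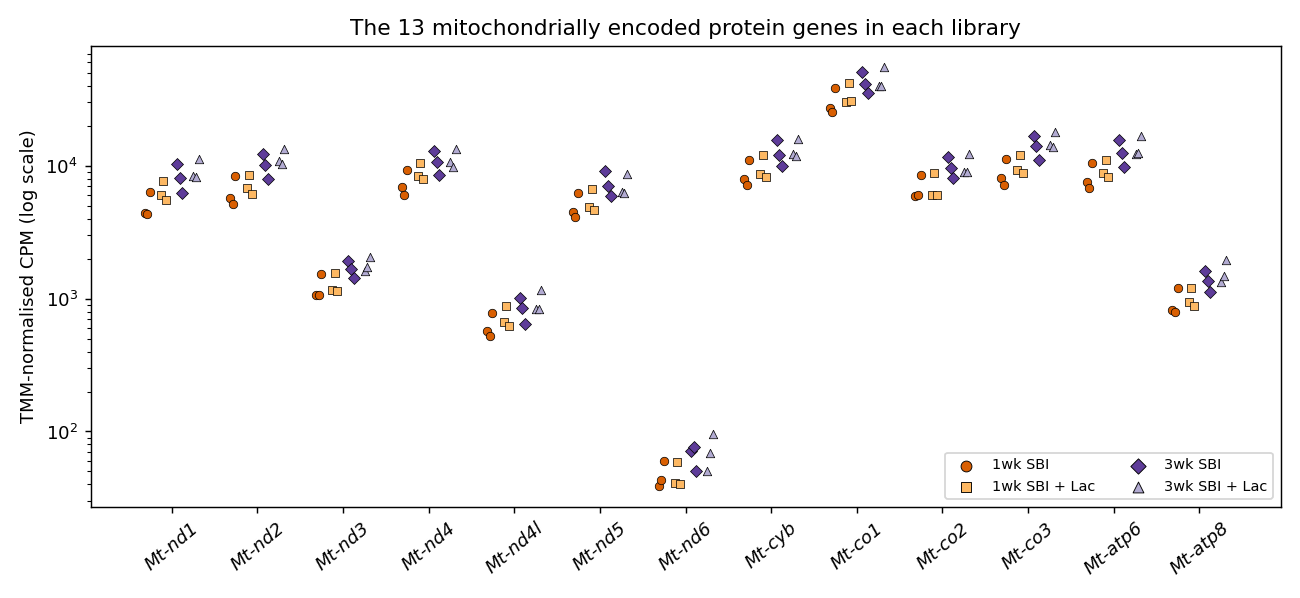
TMM-normalised CPM (log axis) of the 13 mitochondrially encoded genes in each of the 12 libraries, marked by group. Within each group the same library is highest for nearly all genes, and the 3-week libraries reach higher than the 1-week ones for every gene.

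The balance of nuclear to mitochondrially encoded subunits was read from pairs within a complex. Mt-co1 reads per Cox4i1 read, both of complex IV, were 96.7, 95.7 and 103 in 1wk SBI and 98.96, 104 and 91.3 in 1wk SBI + Lac, with overlap. At 3 weeks they were 94.5, 96.6 and 92.4 without and 115, 102 and 126 with lactation, 1.21-fold higher in the mean. The 3-week groups did not overlap, with an exact two-sided permutation p of 0.1, the smallest possible, and at 1 week p was 1. Mt-atp6 reads per Atp5f1a read, both of complex V, were 6.88 ± 0.694 without and 7.12 ± 0.969 with lactation at 3 weeks, with overlapping groups and an exact permutation p of 0.7. In all, 16 such comparisons were made over 4 ratios, and none can fall below 0.1 before adjustment. Poly(A) selection was used for all libraries, and its yield of mitochondrial transcripts was not measured.

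**Figure D5:**
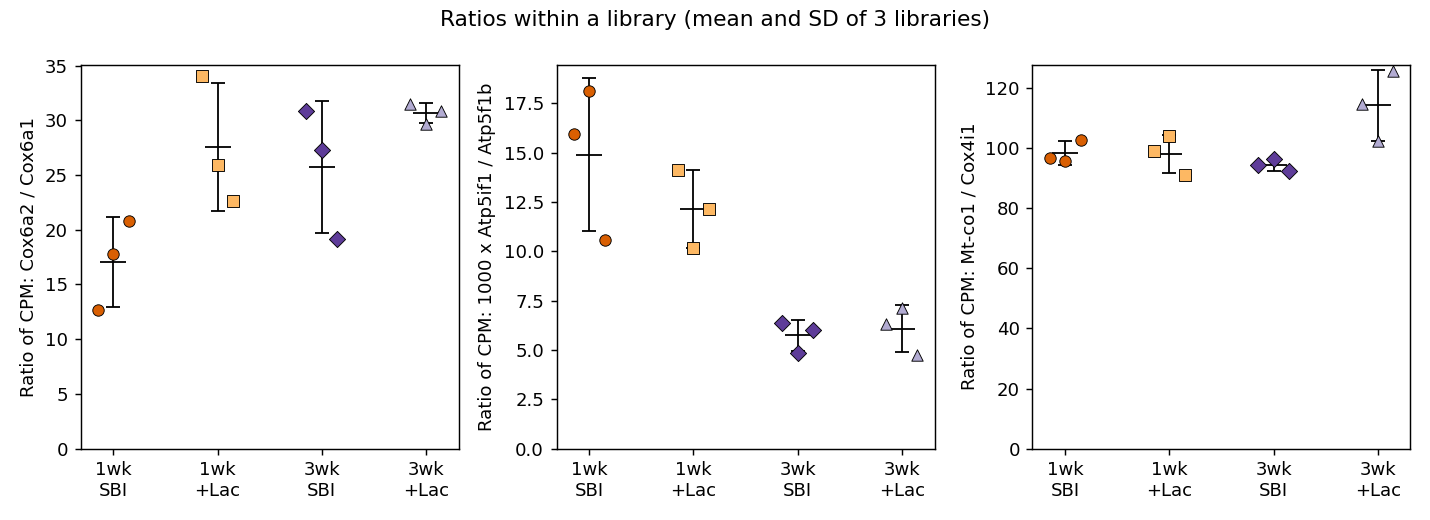
Ratios of CPM within each library, with the mean and SD of 3 libraries per group: Cox6a2 over Cox6a1, 1000 times Atp5if1 over Atp5f1b, and Mt-co1 over Cox4i1. The Atp5if1 ratio is 10.2 or more in every 1-week library and 7.13 or less in every 3-week library.

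Other tissue isoforms showed smaller differences. Cox4i1, the common isoform of subunit IV, measured 284, 266 and 373 CPM in 1wk SBI and 537, 427 and 385 CPM in 3wk SBI, without overlap, at 0.55 ± 0.17 with an edgeR adjusted p of 0.0754. Cox4i2, the isoform linked to low oxygen, stayed between 0.743 and 1.77 CPM in all 12 libraries. Ndufa4 was at 0.22 ± 0.16 with lactation at 1 week and 0.04 ± 0.16 at 3 weeks, while its paralog Ndufa4l2, known as a hypoxia-responsive gene, was at -0.02 ± 0.22 and -0.36 ± 0.24. Cox7a2l, which takes part in joining complexes III and IV, was among the steadiest members, between 85.4 and 102 CPM. The 2 rows of Cox6b1 were at 0.20 and 0.16 at 1 week and 0.0038 and 0.05 at 3 weeks. Of the genes of the ATP synthase c subunit, Atp5mc1, Atp5mc2 and Atp5mc3 were at 0.25, 0.21 and 0.03 at 1 week and at 0.14, -0.03 and -0.12 at 3 weeks. Cyc1 and Cycs, the cytochromes c1 and c, were at 0.12 ± 0.19 and 0.31 ± 0.24 at 1 week and at -0.10 ± 0.19 and 0.14 ± 0.24 at 3 weeks. No isoform in these sets was called for lactation at either time.

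Genes that work beside the chain gave few calls for lactation, where 0.569% of all genes tested were called at 1 week and 2.54% at 3 weeks. Of 40 assembly and cofactor genes tested, 0 were called for lactation at 1 week and 1 at 3 weeks, Cox16, a complex IV assembly protein. It measured 6.97, 6.44 and 5.27 CPM in 3wk SBI and 8.53, 9.81 and 9.78 CPM in 3wk SBI + Lac, at 0.62 ± 0.15 with an edgeR adjusted p of 0.0469. Of 17 tricarboxylic acid cycle enzymes 0 were called for lactation at either time, with 15 above 0 at 1 week and 2 at 3 weeks. Of the 14 carriers, porins and energy transfer genes, Ucp2, an uncoupling protein family member also expressed in immune cells, was called lower at 3 weeks. It measured 23.0, 21.2 and 35.6 CPM without and 12.6, 16.8 and 7.58 CPM with lactation, at -1.07 ± 0.24 with an adjusted p of 0.0383. Of 74 mitochondrial ribosomal protein genes 1 was called for lactation, Mrpl42 at 3 weeks, at 0.46 ± 0.11 with an adjusted p of 0.0439. At 1 week 17 of the 74 were higher and 0 lower at an unadjusted p under 0.05, against 9.76% and 9.16% of all genes. At 3 weeks 14 were higher and 0 lower, against 9.88% and 11.2%. Groups did not overlap at 1 week for 22 with lactation higher and 0 with lactation lower, against 14.3% and 14.1%. The counts at 3 weeks were 11 and 0, against 11.9% and 10.4%.

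None of 27 regulators of mitochondrial biogenesis was called in any of the 5 comparisons by edgeR. Ppargc1a, which encodes PGC-1alpha and is named for its role after its values were seen, measured 7.58, 6.43 and 12.7 CPM in 1wk SBI and 11.4, 15.2 and 11.7 CPM in 1wk SBI + Lac, at 0.52 ± 0.24 with an adjusted p of 0.251. The lowest p at 1 week belonged to Ppara (0.55 ± 0.16, adjusted p = 0.0986) and Ppard (0.40 ± 0.13, 0.126), lipid-sensing nuclear receptors, and to Esrrg, an estrogen-related receptor (0.54 ± 0.21, 0.177). At 1 week 18 of the 27 were above 0 and 9 below. At an unadjusted p under 0.05, 6 were higher and 0 lower, against 9.76% and 9.16% of all genes tested. Groups did not overlap for 5 with lactation higher and 2 with lactation lower, against 14.3% and 14.1% of all genes. At 3 weeks 20 of the 27 were above 0 and 7 below, with a median log2 fold change of 0.19, beside 0.18 at 1 week. At 3 weeks and an unadjusted p under 0.05 in edgeR, 3 were higher and 1 lower, against 9.88% and 11.2% of all genes. The 3-week groups did not overlap for 6 with lactation higher and 1 lower, against 11.9% and 10.4%.

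In the time course without lactation, 2.63% of all genes tested were called higher and 2.42% lower, and 7148 of 14599 had a log2 fold change above 0. Of 17 tricarboxylic acid cycle enzymes, 4 were called higher and 0 lower, and all 17 were above 0, with a median of 0.46. The 4, named after their values were seen, were Sucla2 (0.70), Idh3g (0.78), Mdh2 (0.67) and Pdha1 (0.54). The summed level of the 17 was 3774 to 5416 CPM in 1wk SBI and 5330 to 6821 CPM in 3wk SBI, with overlap. Of the 40 assembly and cofactor genes 3 were called higher, Lrpprc, which stabilises mitochondrial messenger RNA, at 0.63, Cox19 at 0.44 and Atpaf2, an ATP synthase assembly factor, at 0.43. Of the 74 ribosomal protein genes Mrpl2 was called higher, at 0.55. With lactation 0 genes of these lists were called by edgeR for time, against 0.678% of all genes called higher and 1.33% lower.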

How the data were processed

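Polyadenylated RNA of 12 pubocaudalis pools was sequenced. The authors deposited raw counts per gene: whole counts at 1 week, and at 3 weeks values with decimals, read as estimated counts and rounded here. Salmon is named in the submitters' processing notes, and its version, genome and gene models were not given in the sources used here. Neither unit was normalised by the authors. Levels are CPM after TMM scaling. The test was edgeR 4.0.16 in R 4.3.3 (filterByExpr, robust quasi-likelihood fit of all 12 libraries in 4 groups, Benjamini-Hochberg adjustment over 14599 genes, called at adjusted p under 0.05), checked on simulated data. The relative level used a prior count of 2. Alternatives were DESeq2 1.42.0, other scalings and filters, other call limits, the 6 libraries of a comparison alone, a replicate block and leaving out each library. Depth ran from 10082734 to 75634391 counts per library.

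The members and gene lists were chosen with earlier results of these data known, so no p was computed over a list. Named were: called members, the extremes by complex with at least 10 CPM for lactation, all mitochondrially encoded genes, isoform sets, fixed representatives, and the lowest p of other lists; genes outside this rule were named after their values were seen. Replicate numbers did not pair samples. Promoters came from RefSeq (GRCr8), searched in Python 3.11.15. Protein sequences were not used here.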

Additional observations from a re-analysis of the deposited data

Results flagged for a closer look

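Cox7a1 was the 1 member whose lactating pools all lay above the non-lactating ones at 1 week and all below them at 3 weeks, and the difference of the log2 effects was -1.691. By edgeR's interaction contrast the unadjusted p was 0.00429 and the adjusted p 0.999, on 10 to 165 reads per library. Cox7a1 met the 1 CPM rule only through 1wk SBI + Lac and 3wk SBI, the groups where it stood high.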

How the results depend on the processing

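Over the alternatives, 56 followed values lost a call, 2 gained one and 0 called values changed sign. All named genes were followed for lactation. For time and for the difference of the lactation effects, only members already called and Cox7a1 were followed. Calls that other members gained for time are therefore not among the 2, and values not called could change sign without being counted. The counts of calls were less stable, and the cause of the changes was not tested beyond the libraries left out. Library totals alone, an alternative chosen after seeing the data, moved the nuclear median of lactation at 1 week to -0.017 and that of 3 weeks against 1 week without lactation to 0.026, with medians of -0.25 and -0.26 over all genes. It turned the nuclear medians of lactation at 3 weeks and of time with lactation to -0.155 and -0.102, with -0.20 over all genes in both. For lactation at 1 week, leave-one-out counts ran from 0 to 9. For lactation at 3 weeks they ran from 0 to 1, and the count was 0 with library totals alone, with an added log2 fold change limit of 1 and with only the 6 libraries compared in edgeR or DESeq2. Without lactation, the 6 members called for time became 20 in DESeq2, 1 with the log2 limit, 15 at an adjusted p under 0.10, 0 in edgeR and 12 in DESeq2 with only 6 libraries, and 0 to 45 by leave-one-out. With lactation, the 1 member became 4 in DESeq2, 0 with the log2 limit, 5 in edgeR and 14 in DESeq2 with only 6 libraries, and 0 in each leave-one-out fit. The difference of the lactation effects had 0 calls under all 10 settings and in 12 leave-one-out fits.

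Replicate numbers did not pair the samples. Deviations of same-numbered libraries correlated from -0.233 to 0.200 over 18 pairs, and 1 of 12 libraries correlated best with its own number. With the replicate block, the lactation effect at 3 weeks, Ndufaf2 included, had 0 calls (edgeR adjusted p = 0.05335 for Ndufaf2), 3 weeks against 1 week with lactation 0, and without lactation 4.

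Few reads lie behind Cox7a1 and Cox4i2, as few as 10 and 12 in a library.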
